A study of Mus musculus with 12 samples.

Results

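Axonemal genes were examined in primary brain cultures of *Myt1l* (+/−) and (+/+) mice. Members were all genes of the count table whose symbol begins with Dnah, Dnai, Dnal, Dnaaf, Rsph, Tekt or Drc followed by a number, an i or a c, without antisense genes and pseudogenes. This rule, which uses gene names alone, took 41 of 55397 genes, although the genes were picked for description with earlier results of these data known. Of these, 39 reached 0.5 CPM in at least 1 animal and are reported. *Dnah14* reached this level only in (+/−) animal 508 (0.590 CPM), so it is among the 39 genes through the (+/−) group alone. *Dnah17* and *Rsph6a*, both lower on average in (+/−), did not reach it. CPM are the counts of a gene per 1000000 counts of an animal after TMM scaling of its library size. Of the 39 genes, 38 passed the low-count filter of the test, as did 18264 genes in all, and *Dnah14* did not.

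RNA of 6 animals was sequenced, 3 (+/−) with the numbers 505, 506 and 508 and 3 (+/+) controls with the numbers 510, 511 and 513, and the 2 libraries of each animal were summed. The (+/−) animals carried a germline deletion of 7 bp in exon 6 of *Myt1l*, which shifts the reading frame in every cell, so the mutation was not limited to a cell type. All cultures came from P0 pups of the strain C57BL/6J, labelled male, and were kept in serum-containing medium with the antimitotic Ara-C from 3 days after plating until day in vitro 11. The labels name the cortex as the tissue, while the published methods name hippocampus or cortex for primary cultures, the published sample list names hippocampal cultures at this day, and the founders were bred to C57BL/6N mice. The labels state that the mutant mRNA does not decay, so the counts of *Myt1l* cannot check the genotypes. The (+/+) animal 511 had 18805 counts of *Xist*, the RNA of the inactive X chromosome, although it was labelled male, and the other 5 animals had 5 to 10. Totals were 40642699 to 43745258 counts in (+/−) and 43129302 to 52833161 counts in (+/+) animals.

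Motile cilia and flagella are built on the axoneme, a ring of microtubule doublets around a central pair. Outer and inner dynein arms are the motors that slide neighbouring doublets, radial spokes pass signals from the central pair to the arms, the nexin-dynein regulatory complex links the doublets, and tektins are filaments inside the doublet wall. Dynein arms are put together in the cytoplasm by assembly factors before they are carried into the cilium. In the brain, multiciliated ependymal cells line the ventricles and choroid plexus epithelium secretes cerebrospinal fluid, and both express motile cilium genes under the transcription factors FOXJ1 and RFX. Neurons and astrocytes carry a primary cilium, which lacks dynein arms and radial spokes.

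RFX factors bind the X-box, a pair of inverted half-sites with a spacer of 0 to 3 bases, and the promoters of the members were read for it. RefSeq promoters on GRCm38.p6, the same assembly as mm10, were found for 34 of the 39 genes, and the 250 bases before each start site were searched on both strands. The promoters of *Dnah3*, *Dnaaf1*, *Rsph1*, *Rsph10b* and *Rsph4a* were not searched. An X-box was found at 4 of the 34 genes (11.8%) and at 402 of all 27025 genes with a promoter (1.49%). These 4 stretches are shown because they place the X-box next to the start of members from 3 classes, with the X-box in capitals and each strand read 5′ to 3′ along its gene.
Dnaaf2, chr12:69198430-69198466, minus strand: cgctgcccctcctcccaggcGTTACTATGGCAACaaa
Dnaic1, chr4:41569755-41569793, plus strand: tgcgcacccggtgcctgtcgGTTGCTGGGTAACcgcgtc
Dnaic2, chr11:114727366-114727418, plus strand: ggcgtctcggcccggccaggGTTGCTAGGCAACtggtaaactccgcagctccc
Tekt2, chr4:126325685-126325737, minus strand: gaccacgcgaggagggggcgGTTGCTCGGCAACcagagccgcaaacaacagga
The X-box began 17, 19 and 33 bases before the start of *Dnaaf2*, *Dnaic1* and *Dnaic2*, and 71 or 29 bases before the annotated starts of *Tekt2*.

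Shorter motifs were also counted in the same promoters. The half-site GTTGCC, which can be part of an X-box, was present at 9 of 34 members (26.5%) and at 11.8% of all genes. These 9 include *Dnah7a*, *Dnah7b* and *Dnah7c*, which are copies, and *Dnaaf2*, *Dnaic2* and *Tekt2*, already listed with an X-box. The forkhead core GTAAACA was present at 1 member, *Tekt3* (2.94%), and at 3.54% of all genes. AAAGTT, the motif the study names for MYT1L, was present at 12 of 34 members (35.3%) and at 14.2% of all genes. These 12 were *Dnaaf2*, *Dnaaf3*, *Dnah7a*, *Dnah7b*, *Dnah7c*, *Dnah8*, *Dnaic2*, *Dnal1*, *Drc3*, *Rsph14*, *Rsph3a* and *Tekt2*, of which the Dnah7 genes are copies of one another. A match describes letters in a window and does not show binding.

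Across the 39 axonemal genes, (+/−) cultures held more of these mRNAs than (+/+) cultures. Their summed level was 1669, 1335 and 1580 CPM in the (+/−) animals 505, 506 and 508 and 884, 789 and 1183 CPM in the (+/+) animals 510, 511 and 513, a ratio of means of 1.60. No single gene passed the test, since edgeR called 0 of the 38 tested members at an adjusted p under 0.1, as it called 0% of all genes. The adjusted p of the members ran from 0.166, the smallest of any gene, to 0.783. The log2 fold change was above 0 for 37 of 38 members, where 50.4% of all genes were above 0, and its median was 0.77 against 0.0031 over all genes. *Rsph6a*, tested but under the reporting level, is not among these 38 and had a log2 fold change of −0.93. An unadjusted p under 0.05 with a higher (+/−) level was found for 32 of 38 members and 13.2% of all genes, and with a lower (+/−) level for 0 members and 9.11% of all genes. Every (+/−) animal was above every (+/+) animal for 33 of 38 tested members and for 15.5% of all genes. In bulk RNA, more cells with motile cilia and more of these mRNAs per cell cannot be told apart.

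The number of calls depended on the tool and on 1 animal. DESeq2 without a covariate called 31 of 39 members higher in (+/−), with 4.1% of all genes called higher, and its lowest called log2 fold change was 0.38. With genetic sex as a covariate, which the published methods also used, DESeq2 called 11 members, with 0.739% of all genes called higher. Since 511 was the only animal with *Xist*, this term fits that animal alone, and in edgeR the log2 fold change of *Dnah11* was 0.68 with the term as well as without animal 511. These 11 were *Dnah6*, *Dnah10*, *Dnah11*, *Dnah12*, *Dnaaf4*, *Rsph1*, *Rsph4a*, *Tekt1*, *Tekt4*, *Drc3* and *Drc7*. Without the (+/+) animal 513, edgeR called 31 of 39 members higher in (+/−), with 12.3% of all genes called higher. For a single gene, an exact two-sided permutation test of 3 against 3 animals cannot go below p = 0.1, the value it gave for each of the 33 genes without overlap.

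**Figure D1:**
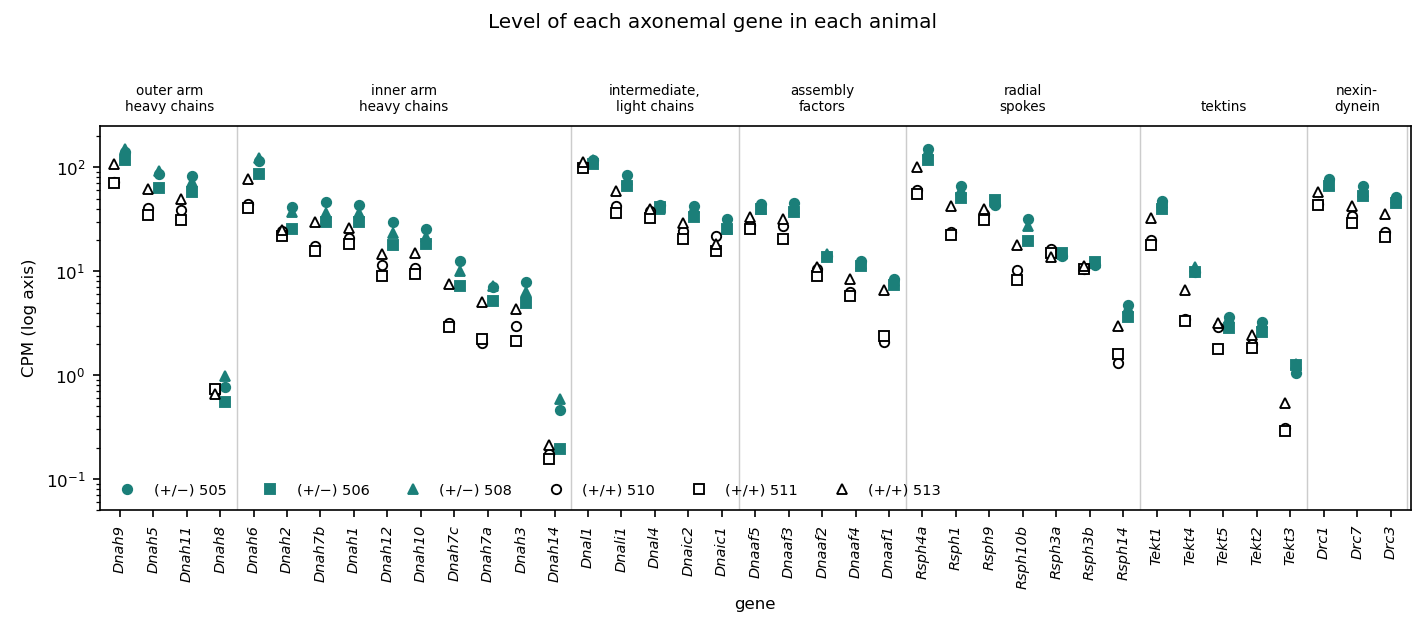
CPM of the 39 axonemal genes in each animal on a log axis, grouped by class, with filled teal symbols for (+/−) and open black symbols for (+/+) animals. The filled symbols sit above the open ones for 33 genes, and the (+/+) animal 513, the open triangle, is the highest of its group for 36 of 39.

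Outer arm heavy chains are the motors that set beat frequency, and DNAH9, DNAH5 and DNAH11 are the chains used in multiciliated cells. *Dnah9* was at 142, 118 and 150.3 CPM in (+/−) animals 505, 506 and 508 and 73.0, 70.3 and 108 CPM in (+/+) animals 510, 511 and 513. Its log2 fold change was 0.71 ± 0.18 (SE, n = 3 animals per genotype, edgeR adjusted p = 0.166). *Dnah5* was at 86.2, 63.1 and 92.1 CPM in (+/−) and 40.3, 34.7 and 62.3 CPM in (+/+) animals, a log2 fold change of 0.81 ± 0.23 (edgeR adjusted p = 0.167). In both genes the groups did not overlap, but (+/+) animal 513 came close to (+/−) animal 506.

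*Dnah11* (chr12:117877982-118199043, minus strand, mm10), the chain of the proximal outer arm, was at 83.3, 58.0 and 71.8 CPM in (+/−) and 38.7, 31.2 and 49.8 CPM in (+/+) animals. The groups did not overlap, and the mean was 71.0 ± 12.7 against 39.9 ± 9.34 CPM (SD). The log2 fold change of *Dnah11* was 0.83 ± 0.19 (edgeR adjusted p = 0.166), the largest of the outer arm. The other 2 outer arm genes belong to the sperm flagellum. *Dnah8* was at 0.771, 0.555 and 0.983 CPM in (+/−) and 0.692, 0.734 and 0.656 CPM in (+/+) animals, and its log2 fold change was 0.15 ± 0.27 (edgeR adjusted p = 0.74). The groups overlapped, and the sign turned with library 1 alone (−0.48) and without (+/−) animal 508 (−0.07). *Dnah17* did not reach the reporting level, with 5, 2 and 2 counts in (+/−) and 12, 9 and 7 counts in (+/+) animals. For this gene, every (+/−) animal was below every (+/+) animal.

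Inner arm heavy chains shape the bend of the cilium, and 10 of them were reported. *Dnah6* was at 116, 85.7 and 123 CPM in (+/−) and 44.2, 40.8 and 76.6 CPM in (+/+) animals. Its groups did not overlap, and its log2 fold change was 1.01 ± 0.25 (edgeR adjusted p = 0.166). *Dnah2* was at 41.8, 25.7 and 37.3 CPM in (+/−) and 24.6, 21.8 and 24.9 CPM in (+/+) animals. It had the smallest log2 fold change of the class, 0.56 ± 0.17 (edgeR adjusted p = 0.17), and (+/−) animal 506 lay just above the (+/+) animals. The class median was 1.00, the highest of the 7 classes.

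Of the remaining inner arm chains, 4 had no close copy. The log2 fold changes were 0.73 for *Dnah1*, 0.89 for *Dnah10*, 1.00 for *Dnah12* and 1.01 for *Dnah3*, each without overlap between the groups. *Dnah7a*, *Dnah7b* and *Dnah7c* are copies on chromosome 1, of which *Dnah7b* and *Dnah7c* lie side by side, and up to 24.9% of the 100-base windows of their longest transcripts also occur in another gene, so their single values are uncertain. *Dnah7c* had the largest log2 fold change of the class, 1.15 ± 0.38 (edgeR adjusted p = 0.178), from 12.6, 7.22 and 10.2 CPM in (+/−) and 3.19, 2.89 and 7.49 CPM in (+/+) animals. Here (+/+) animal 513 was above (+/−) animal 506, so the groups overlapped. *Dnah7a* and *Dnah7b* had log2 fold changes of 1.07 and 0.83 without overlap. *Dnah14* was near the floor, at 0.463, 0.193 and 0.590 CPM in (+/−) and 0.173, 0.156 and 0.211 CPM in (+/+) animals, and was not tested by edgeR.

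Intermediate and light chains hold the arms together and dock them. DNAIC1 and DNAIC2 are intermediate chains found only in outer arms, and DNALI1 is a light intermediate chain of inner arms. *Dnali1* was at 84.7, 66.3 and 75.9 CPM in (+/−) and 42.6, 36.6 and 59.5 CPM in (+/+) animals. Its groups did not overlap, and its log2 fold change of 0.71 ± 0.18 was the largest of the class (edgeR adjusted p = 0.166). *Dnaic1* and *Dnaic2* had log2 fold changes of 0.57 and 0.67 without overlap.

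Both small light chains stood apart from these chains. *Dnal1* was at 118, 107 and 118 CPM in (+/−) and 104, 98.5 and 112 CPM in (+/+) animals, and its log2 fold change was 0.13 ± 0.09 (edgeR adjusted p = 0.396). Its groups overlapped. *Dnal4* was at 43.2, 42.0 and 40.05 CPM in (+/−) and 37.8, 32.5 and 39.7 CPM in (+/+) animals, with a log2 fold change of 0.19 ± 0.10 (edgeR adjusted p = 0.274). The difference between genotypes in these 2 genes was within 1.14-fold.

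**Figure D2:**
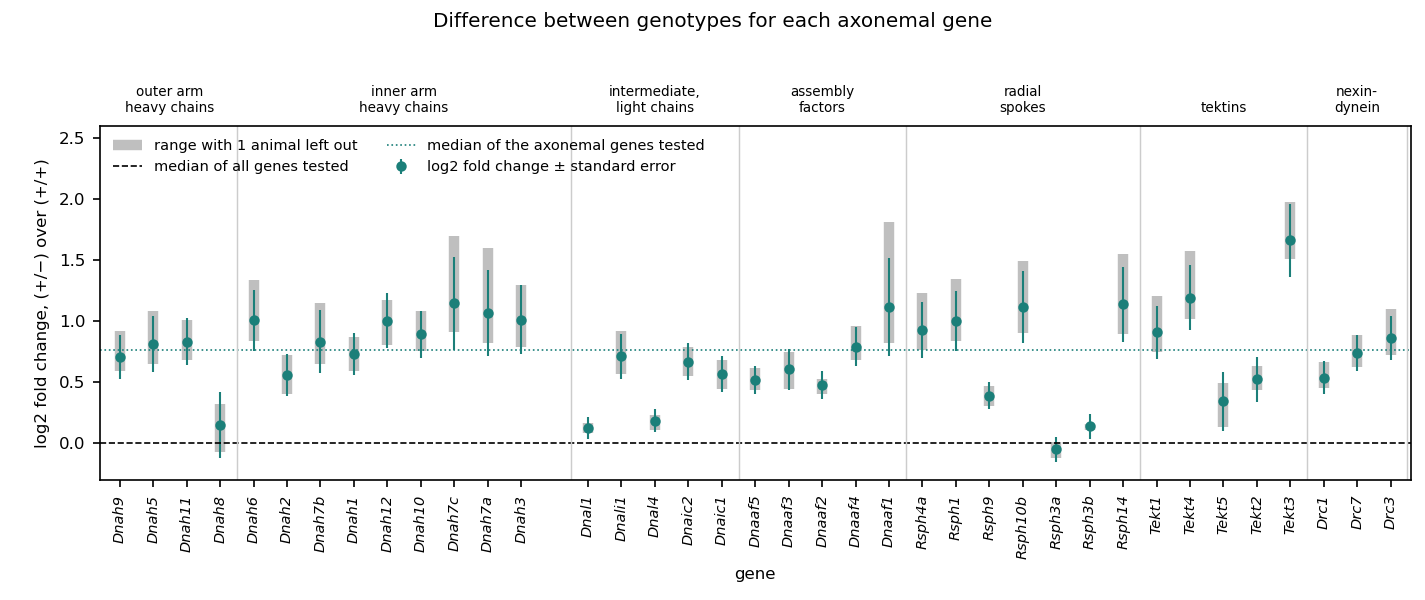
edgeR log2 fold change of (+/−) over (+/+) for the 38 tested genes, with bars for the standard error and grey bars for the range when 1 animal is left out; dotted and dashed lines mark the medians of the axonemal genes (0.77) and of all genes tested (0.0031). Of the 38 points, 30 lie above 0.5, while *Dnah8*, *Dnal1*, *Dnal4*, *Rsph3a* and *Rsph3b* lie within 0.2 of 0, and *Dnah14* has no point.

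Assembly factors fold and join dynein arms in the cytoplasm, and all 5 named ones had every (+/−) animal above every (+/+) animal. *Dnaaf5* was at 44.0, 39.7 and 40.1 CPM in (+/−) and 27.9, 25.5 and 33.2 CPM in (+/+) animals, with a log2 fold change of 0.52 ± 0.11 (edgeR adjusted p = 0.166). *Dnaaf3* was at 45.1, 36.8 and 39.4 CPM in (+/−) and 27.3, 20.4 and 32.0 CPM in (+/+) animals, with a log2 fold change of 0.61 ± 0.17 (edgeR adjusted p = 0.166). In these genes, too, animal 513 was the highest (+/+) animal.

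*Dnaaf1* had the largest log2 fold change of the assembly factors, 1.12 ± 0.40 (edgeR adjusted p = 0.189), and also the largest standard error of the reported genes. It was at 8.51, 7.29 and 8.09 CPM in (+/−) animals and at 2.09, 2.40 and 6.56 CPM in (+/+) animals 510, 511 and 513, and without animal 513 the log2 fold change was 1.81. *Dnaaf2* had the smallest, 0.48 ± 0.11 (edgeR adjusted p = 0.166), from 14.0, 13.7 and 14.8 CPM in (+/−) and 10.4, 9.04 and 11.0 CPM in (+/+) animals. *Dnaaf4* had a log2 fold change of 0.79. The values of *Dnaaf2* and *Dnaaf4* are uncertain, because 38.7% and 59.2% of their exon bases overlap another annotated gene on the same strand.

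Radial spoke genes divided into spoke head and spoke stalk. RSPH1, RSPH4A and RSPH9 form the head that faces the central pair in multiciliated cells. *Rsph4a* was at 150.5, 117 and 144 CPM in (+/−) and 60.9, 54.9 and 100.4 CPM in (+/+) animals, and its log2 fold change was 0.93 ± 0.23 (edgeR adjusted p = 0.166). *Rsph1* (chr17:31255019-31277383, minus strand, mm10) was at 65.5, 51.1 and 60.0 CPM in (+/−) and 23.7, 22.2 and 42.2 CPM in (+/+) animals. Neither gene had overlapping groups, and the mean of *Rsph1* was 58.8 ± 7.27 against 29.4 ± 11.1 CPM (SD), a log2 fold change of 1.00 ± 0.24 (edgeR adjusted p = 0.166). *Rsph9* had a smaller log2 fold change of 0.39 without overlap, and *Rsph10b* one of 1.12, although 13.2% of its exon bases overlap other genes on the same strand.

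*Rsph14* had the largest log2 fold change of the spoke genes, 1.14 ± 0.31 (edgeR adjusted p = 0.166), at 4.78, 3.65 and 4.47 CPM in (+/−) and 1.31, 1.60 and 2.97 CPM in (+/+) animals. RSPH3 is a stalk protein, encoded in the mouse by 2 close copies, and 60.6% of *Rsph3a* and 64.8% of *Rsph3b* windows occur in the other copy, so the split of reads between them is uncertain. *Rsph3a* was the only tested and reported gene with a log2 fold change below 0, −0.05 ± 0.10 (edgeR adjusted p = 0.783), from 14.0, 15.0 and 14.6 CPM in (+/−) and 16.4, 14.9 and 13.8 CPM in (+/+) animals. Its groups overlapped, and its sign turned with library 1 alone (0.05) and without (+/+) animal 510 (0.01). *Rsph3b* had a log2 fold change of 0.14 with no overlap, at 11.6 to 12.2 CPM against 10.5 to 11.3 CPM. *Rsph6a*, the spoke head gene of sperm, stayed under 0.5 CPM, with 2, 10 and 12 counts in (+/−) and 19, 20 and 12 counts in (+/+) animals and a log2 fold change of −0.93 ± 0.54 (edgeR adjusted p = 0.313).

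Tektins line the inner wall of the doublets, and *Tekt1* (chr11:72344722-72362442, minus strand, mm10) had the highest level per kb of the 5. It was at 47.3, 40.0 and 45.2 CPM in (+/−) and 19.9, 18.0 and 32.7 CPM in (+/+) animals, a mean of 44.2 ± 3.73 against 23.6 ± 8.01 CPM (SD). The groups did not overlap, and the log2 fold change was 0.91 ± 0.22 (edgeR adjusted p = 0.166). *Tekt4* was at 9.81, 9.83 and 11.0 CPM in (+/−) and 3.50, 3.29 and 6.63 CPM in (+/+) animals, a log2 fold change of 1.19 ± 0.27 (edgeR adjusted p = 0.166).

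*Tekt3* had the largest log2 fold change of all axonemal genes, 1.66 ± 0.30 (edgeR adjusted p = 0.166), although its level was low. It was at 1.06, 1.26 and 1.28 CPM in (+/−) and 0.307, 0.289 and 0.538 CPM in (+/+) animals, so the lowest (+/−) value was above the highest (+/+) value. *Tekt5*, a tektin best known from sperm, had the smallest, 0.34 ± 0.24 (edgeR adjusted p = 0.385). It was at 3.64, 2.85 and 3.56 CPM in (+/−) and 2.90, 1.80 and 3.21 CPM in (+/+) animals, with overlapping groups. *Tekt2*, whose promoter held an X-box, had a log2 fold change of 0.53 without overlap.

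The nexin-dynein regulatory complex holds neighbouring doublets together, and the 3 genes that carry its name had no overlap between genotypes. *Drc1*, a base-plate subunit, was at 78.0, 65.6 and 67.0 CPM in (+/−) and 44.6, 43.0 and 57.5 CPM in (+/+) animals, with the smallest log2 fold change of the 3, 0.54 ± 0.13 (edgeR adjusted p = 0.166). *Drc7* was at 66.1, 53.3 and 58.2 CPM in (+/−) and 34.3, 29.3 and 42.6 CPM in (+/+) animals, a log2 fold change of 0.74 ± 0.15 (edgeR adjusted p = 0.166). *Drc3* was at 51.4, 45.0 and 50.8 CPM in (+/−) and 24.1, 21.5 and 35.4 CPM in (+/+) animals, with the largest, 0.87 ± 0.18 (edgeR adjusted p = 0.166).

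By class, the median log2 fold change was 1.00 for inner arm heavy chains, 0.93 for radial spokes, 0.91 for tektins, 0.76 for outer arm heavy chains, 0.74 for the nexin-dynein complex, 0.61 for assembly factors and 0.57 for intermediate and light chains. The differences between classes were not tested. Of 38 tested genes, 30 had a log2 fold change over 0.5, 11 had one over 1 and 5 lay between −0.2 and 0.2.

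Levels of different genes were compared per kb of exon length, since long heavy chain mRNAs collect more reads. On this scale of CPM per kb, the highest levels in (+/−) cultures were 42.9 for *Rsph1*, 37.6 for *Rsph4a*, 35.5 for *Dnali1*, 28.8 for *Rsph9*, 27.2 for *Tekt1* and 26.2 for *Drc1*. The corresponding (+/+) levels were 21.4, 19.7, 21.7, 21.9, 14.5 and 18.0 CPM per kb. *Dnah9*, the highest of the heavy chains on this scale, was at 8.56 in (+/−) and 5.24 CPM per kb in (+/+) cultures. *Dnah5* and *Dnah11*, which also encode outer arm chains, were at 5.15 and 4.91 CPM per kb in (+/−) and at 2.93 and 2.76 in (+/+) cultures. The sperm chain *Dnah8* was at 0.0287 and 0.0259 CPM per kb.

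Ratios within an animal compared the relative mRNA levels of paired genes between genotypes, and do not measure the make-up of the protein complexes. *Dnah9* over *Dnah5*, per kb, was 1.68 ± 0.13 in (+/−) and 1.82 ± 0.15 in (+/+) animals (SD, n = 3 each, exact two-sided permutation p = 0.3). *Dnah11* over *Dnah5* was 0.960 ± 0.105 and 0.957 ± 0.0875 (exact permutation p = 0.9), and *Rsph4a* over *Rsph1* was 0.876 ± 0.0229 and 0.929 ± 0.0357 (exact permutation p = 0.2). *Rsph9* over *Rsph1* was 0.563, 0.821 and 0.663 in (+/−) and 1.27, 1.19 and 0.798 in (+/+) animals (exact permutation p = 0.2). Here (+/+) animal 513 lay among the (+/−) animals for this ratio. *Drc3* over *Drc1* was 0.416 ± 0.0303 in (+/−) and 0.328 ± 0.0354 in (+/+) animals, without overlap (exact permutation p = 0.1). Over the 8 ratios compared, no adjusted p was below 0.4, and the design could not have given an unadjusted p under 0.1.

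The animals kept a similar order across the axonemal genes. Among (+/+) animals, 513 was the highest for 36 of 39 genes, with *Dnah8*, *Dnaic1* and *Rsph3a* as exceptions, and 511 was the lowest for 34. Among (+/−) animals, 505 was the highest for 26 and 506 the lowest for 32. Animal 513 was above at least 1 (+/−) animal for 5 genes, which were *Dnah7c*, *Dnah8*, *Dnah14*, *Dnal1* and *Tekt5*. On a log2 scale from 0 at the mean of the other (+/+) animals to 1 at the (+/−) mean, animal 513 had a median position of 0.57. This covers the 33 genes without overlap, which were chosen with 513 below every (+/−) animal, so its position had to stay below 1. The log2 fold change stayed above 0 for 36 of 38 genes whichever animal was left out.

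**Figure D3:**
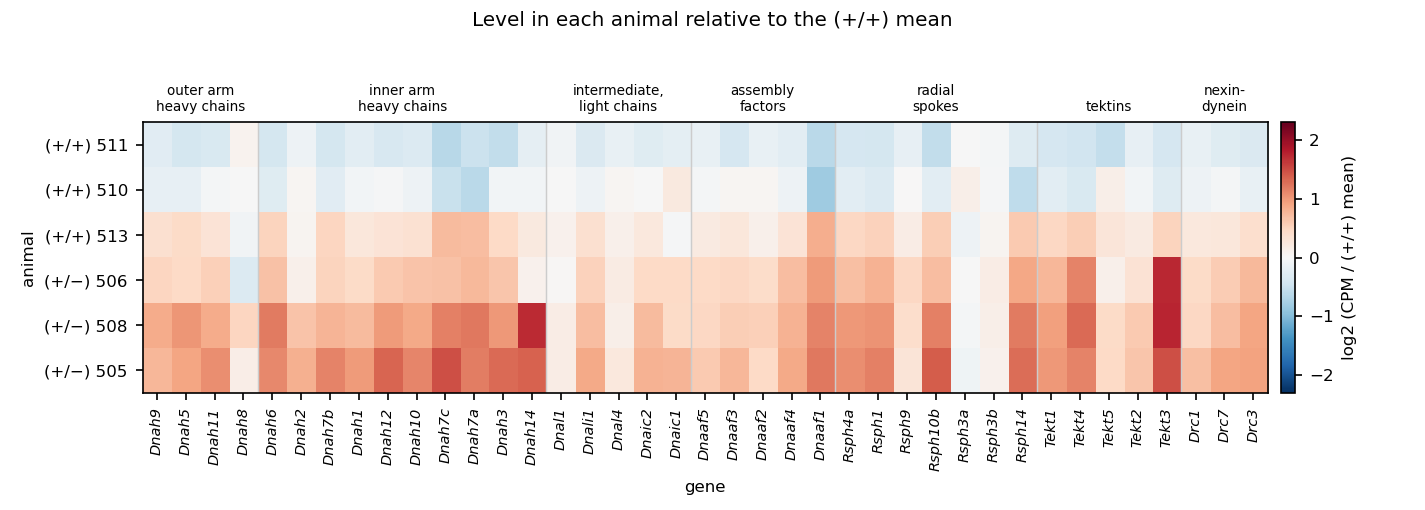
log2 of the CPM of each axonemal gene (columns, by class) in each animal (rows) over the (+/+) mean of that gene, from blue (below) to red (above). Medians over the 38 tested genes were taken on a related scale, log2 of CPM plus 0.1 minus the (+/+) mean of these logs. They are −0.27 in (+/+) 511, −0.07 in 510, 0.34 in 513, 0.56 in (+/−) 506, 0.82 in 508 and 0.94 in 505. On this scale, animal 513 lies between both groups.

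Genes of the same complexes that the name rule does not reach were listed separately. Of 45 tested, 44 had a log2 fold change above 0, 37 had an unadjusted p under 0.05 with a higher (+/−) level, and the median was 0.73. The highest mean CPM in this list, a measure that length enters, was that of *Wdr92*, *Ruvbl2* and *Wdr78*. *Wdr92* and *Ruvbl2* belong to a widely expressed co-chaperone system, and their log2 fold changes were −0.18 and 0.05, while that of *Wdr78*, an inner arm intermediate chain, was 0.73. *Pih1d3* had 0 counts in all animals. For the central pair apparatus, which the radial spokes touch, 15 of 16 tested genes were above 0 and 14 had such a p, with a median of 0.80. Its highest members were *Cfap54*, *Ak7* and *Cfap69*, with log2 fold changes of 0.62, 0.62 and 0.61.

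Dyneins outside the axoneme served as a comparison within the superfamily. Of 17 tested genes of cytoplasmic and transport dynein, 8 had a log2 fold change above 0, and the median was −0.08. The highest were *Dync1h1*, *Dynll2* and *Dynll1*, with log2 fold changes of −0.16, −0.16 and 0.07. An unadjusted p under 0.05 was found with a higher (+/−) level for *Dynlt1f*, *Dync2h1*, *Dync2li1*, *Wdr34* and *Wdr60* and with a lower (+/−) level for *Dync1li1*, genes named after their values were seen. *Dync2h1*, *Dync2li1*, *Wdr34* and *Wdr60* are parts of the retrograde motor of intraflagellar transport, with log2 fold changes of 0.28 to 0.70.

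Of 22 tested regulators of multiciliation, 19 had a log2 fold change above 0, 12 had an unadjusted p under 0.05 with a higher (+/−) level, and the median was 0.41. *Foxj1*, the master regulator of motile cilia, was at 647, 582 and 611 CPM in (+/−) and 401, 349 and 484 CPM in (+/+) animals. Its groups did not overlap, and its log2 fold change was 0.58 ± 0.14 (edgeR adjusted p = 0.166). *Rfx3* and *Rfx4* had log2 fold changes of 0.05 and 0.31.

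Markers of the cells that could carry these genes were measured beside them, and the lists share a few genes, since *Aqp4* and *S100b* stand as ependymal and astrocyte markers, *Calml4* as an ependymal and choroid plexus marker, and *Dynlrb2* among the ependymal markers and the genes of the same complexes. Of 22 ependymal markers outside the axoneme, 22 had a log2 fold change above 0 and 20 had an unadjusted p under 0.05 with a higher (+/−) level, with a median of 0.78. Their summed level was 4789 to 5217 CPM in (+/−) and 3250 to 4236 CPM in (+/+) animals. The highest members were *Nnat*, *Aqp4* and *Pltp*, with log2 fold changes of 0.13, 0.46 and 0.50. *Nnat* (means of 1611 and 1471 CPM) and *Aqp4* (1090 and 792 CPM) weigh most in this sum, and neither had an unadjusted p under 0.05. Among the defining ependymal genes, *Tmem212* was at 32.0, 27.1 and 27.6 CPM in (+/−) and 15.5, 11.4 and 16.6 CPM in (+/+) animals, and none was at 0.

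Of 20 tested choroid plexus markers, 18 were above 0 and 14 had an unadjusted p under 0.05 with a higher (+/−) level, with a median of 0.88. Their sum was 2079, 1087 and 735 CPM in (+/−) animals 505, 506 and 508 and 577, 435 and 335 CPM in (+/+) animals 510, 511 and 513. The highest members were *Ttr*, *Enpp2* and *Slc4a10*. The defining gene *Kcne2* was near the floor in all (+/+) animals, at 0.115, 0 and 0.0234 CPM. It was at 2.14, 0.652 and 0.197 CPM in (+/−) animals. For this sum, the order of the animals differed from that of the axonemal genes, since 513 was the lowest (+/+) animal and 508 the lowest (+/−) animal. *Ttr*, its highest member, was at 1302, 631 and 303 CPM in (+/−) and 205, 82.9 and 47.1 CPM in (+/+) animals. By the median log2 level relative to (+/+), 513 was also the lowest (+/+) animal (−0.23). By this median, 506 was the lowest (+/−) animal (0.63, against 0.70 in 508). Among (+/+) animals, 513 was the highest for *Cldn2* and the lowest for *Ttr*. The part of ependymal and choroid plexus cells in the axonemal result was not tested.

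Marker levels of other cell types also differed between the animals. Neuron markers summed to 3155, 5554 and 6122 CPM in (+/−) animals 505, 506 and 508 and to 6151 to 7300 CPM in (+/+) animals, so that 505 stood apart and 508 lay next to the lowest (+/+) animal. Of these markers, 0 of 16 had a log2 fold change above 0, with a median of −0.47. Of these, 3 (*Elavl3*, *Elavl4* and *Dcx*) had an unadjusted p under 0.05 with a lower (+/−) level, and the highest were *Stmn2*, *Slc17a7* and *Map2*. Microglia markers summed to 283, 153 and 148 CPM in (+/−) animals 505, 506 and 508 and to 105 to 140 CPM in (+/+) animals, so that 505 again stood apart, as it did for the choroid plexus markers. Microglia markers had 11 of 11 above 0, 7 of them at an unadjusted p under 0.05 with a higher (+/−) level, and a median of 1.00. Astrocyte markers summed to 13109 to 14477 CPM in (+/−) and 9370 to 14170 CPM in (+/+) animals, with 9 of 12 above 0 and a median of 0.10. Of these, *S100b* and *Mlc1* had such a p, and *Gfap*, *Slc1a2* and *Slc1a3* were the highest. Animal 513 had the highest astrocyte sum of the (+/+) animals. Sperm markers were near the floor, at a sum of 0.779 to 2.25 CPM over all animals, with *Prm1*, *Tnp1* and *Tnp2* at 0 counts, and of 2 tested only *Spata3* had an unadjusted p under 0.05. No gene of any of these lists had an edgeR adjusted p under 0.1, and the part of these cell types in the axonemal result was not tested.

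**Figure D4:**
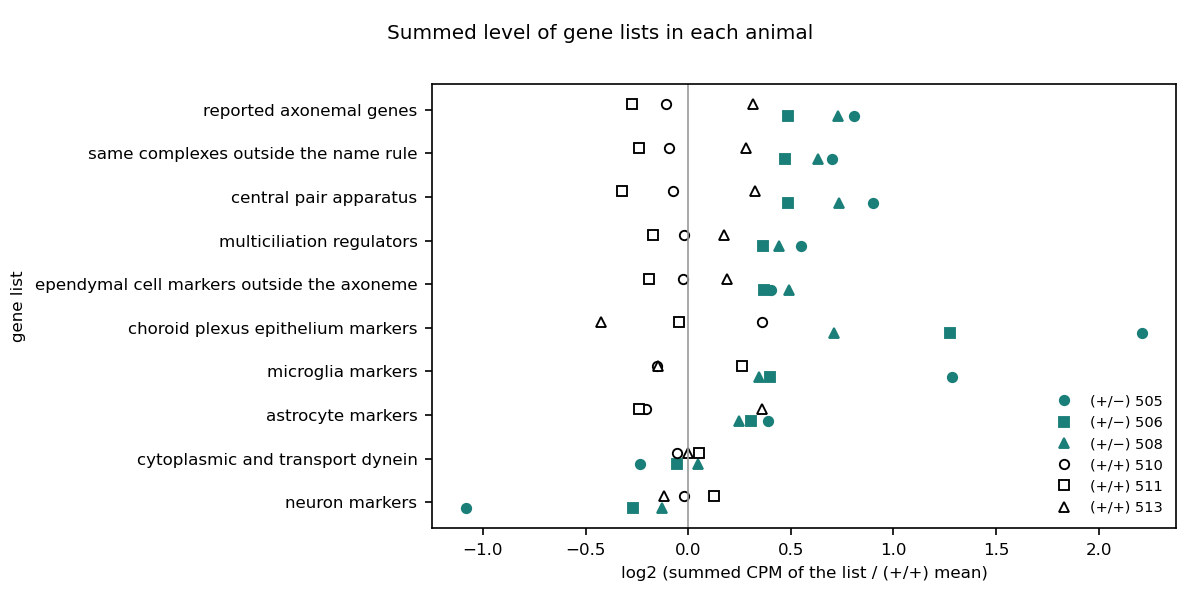
Summed CPM of gene lists in each animal as log2 over the (+/+) mean, with filled teal symbols for (+/−) and open black symbols for (+/+) animals. The axonemal genes, the other genes of the same complexes, the central pair, the multiciliation regulators, the ependymal markers and the astrocyte markers show the same order of (+/+) animals, with 513 highest, while 513 is lowest for the choroid plexus markers.

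Both libraries of an animal gave close values for most genes. For 28 of 39 genes, they differed by less than 1.2-fold in every animal. The remaining genes, several of them at low levels, differed more in at least 1 animal. Among them, the log2 fold change was 0.23 with library 1 and 0.81 with library 2 for *Tekt2*. For *Tekt5* it was 0.03 and 0.65. Overlapping genes on the opposite strand can add reads if the counting ignored strand, which the sources used here do not state. The largest such overlaps were *Gm37710* over 37.4% of the exon bases of *Dnaaf4* and *9330151L19Rik* over 32.7% of *Dnaaf2*. Others included *Gm12945* over 20.8% of *Tekt2*, *Taf1c* over 20.7% of *Dnaaf1* and *Lyrm1* over 10.5% of *Dnah3*.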

How the data were processed

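The deposited raw counts, which the authors made per gene for each of 12 libraries from reads mapped to mm10 by STAR, were the input. Counts scaled per animal and a table of the authors' own shrunken log2 fold changes and p-values were not used. The strand setting of the counting was not given in the sources used.

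Members and gene lists were chosen with earlier results of these data known. Library counts were added up per animal and the genotypes compared without a covariate in edgeR 4.0.16 (R 4.3.3). Genes were filtered by filterByExpr on genotype and normalised by TMM, and the quasi-likelihood p was adjusted by Benjamini and Hochberg over all genes tested, with a threshold of 0.1. The standard error of a log2 fold change was its size divided by the square root of F. Exon lengths for levels per kb came from the deposited table. p-values measure the spread between these animals, and totals per library were 20181477 to 26594444 counts. Alternatives were limma voom (3.58.1), DESeq2 1.42.0 with and without genetic sex, its size factors in edgeR, edgeR with sex, other low-count filters, each library alone, all 12 libraries, a stricter threshold and each animal left out. The scripts were tested on simulated data with known changes.

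All reported members were named. Values per animal were given for *Dnah11*, *Rsph1*, *Tekt1* and, in each class, for the 2 genes with the highest mean CPM and those with the largest and smallest log2 fold change, and some others were added after their values were seen. The highest microglia markers are not reported here. Promoters came from RefSeq (GRCm38.p6), and gene overlaps from GENCODE M21, where 40 of 41 members had the position of the count table.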

Additional observations from a re-analysis of the deposited data

How the results depend on the processing

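The direction of the axonemal genes held under the alternatives tried, apart from *Dnah8* (−0.48 with library 1 alone and −0.069 to 0.32 with 1 animal left out, negative without (+/−) animal 508) and *Rsph3a* (0.053 with library 1 alone and −0.12 to 0.0089 with 1 animal left out, positive without (+/+) animal 510). The number of axonemal genes called higher was 0 in edgeR against 31 with DESeq2, 11 with DESeq2 and genetic sex, and 30 without the low-count filter, and leaving out 1 animal gave 0 to 31. The calls made with 1 animal left out came without animal 513. Over all genes, DESeq2 called 1324 higher and 772 lower of 32318 tested, and DESeq2 with sex 239 and 37 of 32322. Without the filter, edgeR called 1021 higher and 454 lower of 32322 tested. Leaving out 1 animal gave 0 to 2294 higher and 0 to 1109 lower, with 18638 genes tested without animal 513. edgeR with DESeq2 size factors, with sex, with a filter at 1 CPM or with 1 library per animal, and limma voom, called 0 genes. The count of axonemal genes without overlap was 31 with library 1, 27 with library 2 and 25 over 12 libraries. It was 33 to 38 with 1 animal left out, which cannot lower it. The share of all genes without overlap under each of these settings is not given here, so the counts are not set against it. The median log2 fold change was 0.65 to 0.96 with 1 animal left out, and 0 axonemal genes were called lower in any fit.

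A paired fit on all 12 libraries, with the library number as a replicate block, called 34 of 38 axonemal genes higher. Of 16588 genes tested in all, it called 4006 higher and 3571 lower. It treats both libraries of an animal as replicates. The library numbers did not pair the animals, since the deviations of library 1 from the animal mean correlated at −0.0165 to 0.0169 over the 15 pairs of animals. Genes under about 1 CPM, such as *Dnah8* and *Dnah14*, are limited by depth.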
